A study of Danio rerio with 2 samples.

Results

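Complexes III, IV and V carry out the last steps of mitochondrial respiration, and their nuclear-encoded subunits were followed here in zebrafish hearts at 72 hpf. Members were all rows whose Ensembl symbol, in any letter case, begins with uqcr (complex III), cox4 to cox8 (complex IV) or atp5 (complex V), together with cyc1. This rule uses names alone and no measured value, but it was chosen with earlier results of these data known. From its RNA-seq of control and mutant hearts at this age, the experiment behind these data, the paper had already reported oxidative phosphorylation among the pathways enriched in downregulated genes. A decrease of members here is therefore not independent of that report. The rule matched 50 symbols in the table of names, of which 47 had a row among the 33396 genes of the data. Of these, 9 were in complex III, 18 in complex IV and 20 in complex V. The other 3 identifiers, a further cox5b, a further cox7a2 and cox7b, were not analysed here. Symbols given in capitals by the name table are printed in lower case, and the identifier is added where a symbol is shared or where it differs from another only by a paralog letter.

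In the respiratory chain, complex III takes electrons from ubiquinol to cytochrome c, complex IV passes them on to oxygen, and both pump protons out of the matrix. Complex V, the ATP synthase, lets the protons flow back and makes ATP. Heart muscle depends on this chain for most of its energy. Each complex is a mosaic of subunits from the mitochondrial genome and from the nucleus, and several nuclear subunits exist as paralogous forms that tissues use in different proportions.

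There was 1 library per group. The control hearts are recorded as wild type and the other hearts as homozygous for smyd4 L544Efs*1, a frameshift allele made with CRISPR/Cas9 that cuts off the C-terminal end of the protein. Both are recorded as strain Tu at 72 hpf, whereas the methods name Tg(cmcl2:GFP), a line with a green reporter in cardiomyocytes, as the control and describe the mutant hearts as maternal-zygotic (MZsmyd4 L544Efs*1), that is, from mutant parents. The heart reporter was used to find the tissue, and each library holds hearts pooled from many embryos. Levels are the FPKM values that the authors deposited, that is, read counts scaled by gene length and by library total. The values fix the library totals only up to a common multiple. The smallest totals not exceeded by the recovered reads were 18840114 reads for control and 17960132 for the other.

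The mutated gene was checked first. smyd4 (ENSDARG00000060983) had 2.42 FPKM in control and the same 2.42 FPKM in the other library, from 111 and 106 recovered reads. The ratio was 1.00, with an exact 95% interval from 0.760 to 1.32, and 0.7002 with TMM scaling, which sets libraries to a common trimmed mean (0.531 to 0.922). By qRT-PCR and in situ hybridization, the paper reports that maternal-zygotic mutant embryos had lost the smyd4 transcript. It names nonsense-mediated decay as the likely reason. These heart libraries show no such loss of reads, and why was not tested. Since the level was lower only after scaling between the libraries, those hearts are referred to by their label, as the labelled mutant library. No spread between replicates exists for setting a difference against, with 1 library in each group, so no p-value is given and all intervals cover counting error only.

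Differences are given as the labelled mutant library minus control on the scale of log2(FPKM + 1), which understates the change of low genes. A gene was tested at 1 FPKM or more in either library and is called lower or higher when its difference was beyond -1 or 1. Of the 47 members, 46 were tested. All 17800 tested genes together had a median difference of 0.49, which became 0.04 with TMM scaling. The main counts and medians of the members are therefore also given relative to 0.49. Other differences are given without scaling between the libraries unless stated, and are to be read against this shift.

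Most nuclear-encoded subunits fell and none rose past the threshold. Of the 46 tested members, 31 (67.4%) were lower and 0 were higher, where 11.6% of all tested genes were lower and 33.3% were higher. With TMM scaling the counts were 38 and 0 of 47, where 19.3% of all genes were lower and 21.2% higher. Relative to the median of all genes, 38 members were lower and 0 higher, against a background of 21.5% lower and 18.6% higher. The members lower in this way and by TMM, but not without scaling, were cyc1, uqcrh, cox6b1, cox6c, atp5f1c, atp5pf and atp5mj. With a trend on mean expression removed, cox6c, atp5pf and atp5mj were lower too, whereas atp5f1c came to 0.13 and cyc1 to -0.23. The median difference of the members was -1.22, or -1.72 relative to all genes. The FPKM of all members summed to 26149 in control and 11732 in the labelled mutant library, which was 3.21% and 1.68% of all FPKM in the respective library. The order of the members hardly changed between the libraries (Spearman's rho of their levels 0.94 over 46 genes, a description in which the genes share both libraries).

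The members are abundant genes of short recovered length, and such genes were lower more often in general. The recovered length had a median of 673.5 bases in the members and 1519 bases in all tested genes. The true length can be a multiple of the recovered one, so some genes may be placed in too short a class. Among all 1056 tested genes with a mean of at least 100 FPKM, 28.5% were lower, and 19 of 30 members of that class (63.3%) were. For the 4866 genes with a recovered length under 1000 bases the background was 20.4%, beside 27 of 39 members (69.2%). Genes with both properties had the highest background, 40.0% of 523 genes, beside 15 of 23 members (65.2%). Relative to the median of all genes, 54.1% of these 523 genes were lower, beside 20 of the 23 members (87.0%). Within the members themselves the difference followed neither the control level (rho -0.04) nor, more than weakly, the length (rho 0.28).

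**Figure D1:**
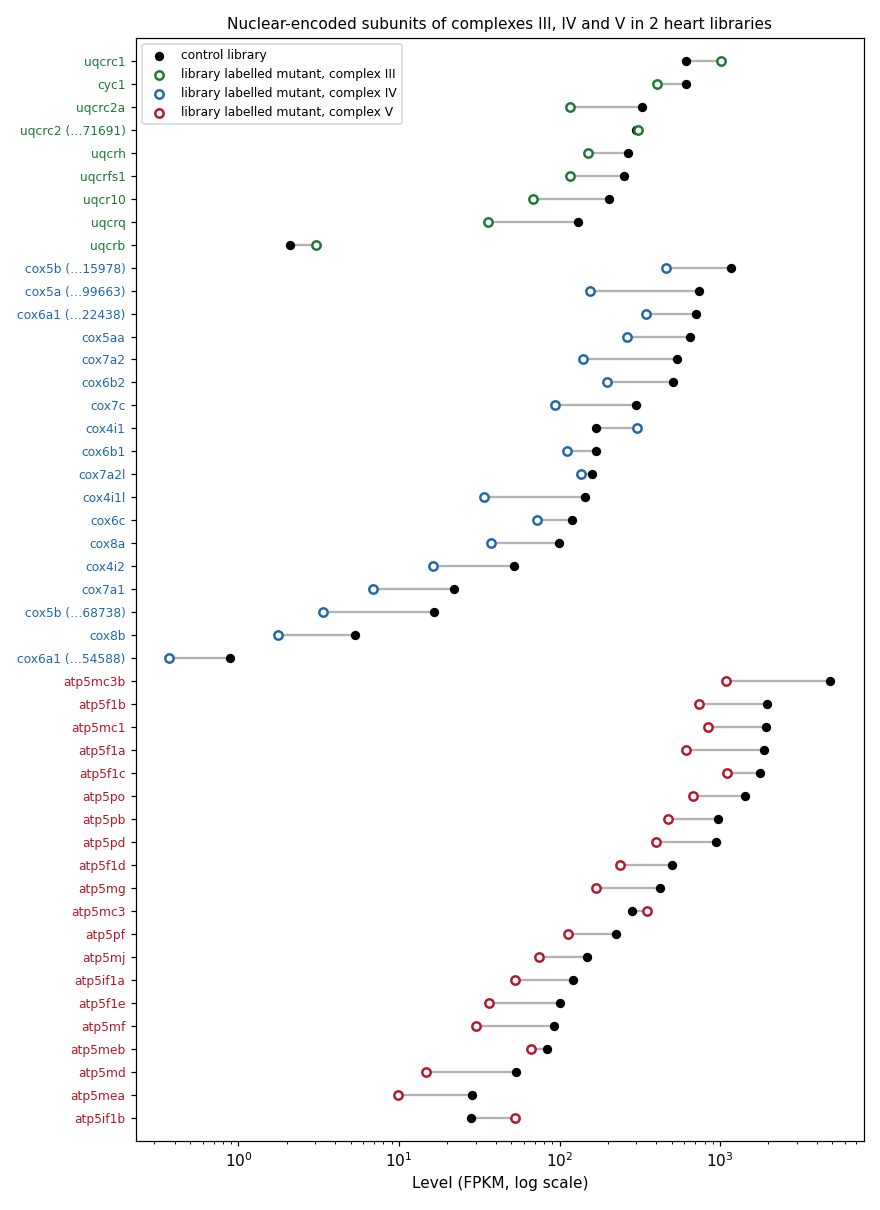
Level of each of the 47 members in FPKM on a log axis, with 1 row per gene and 1 point per library (filled: control, open: library labelled mutant, coloured by complex). Most open points lie to the left of the filled ones. Those of cox4i1, uqcrc1 and atp5if1b lie clearly to the right, at 302, 1007 and 52.8 FPKM against 168, 617 and 27.9 FPKM.

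**Figure D2:**
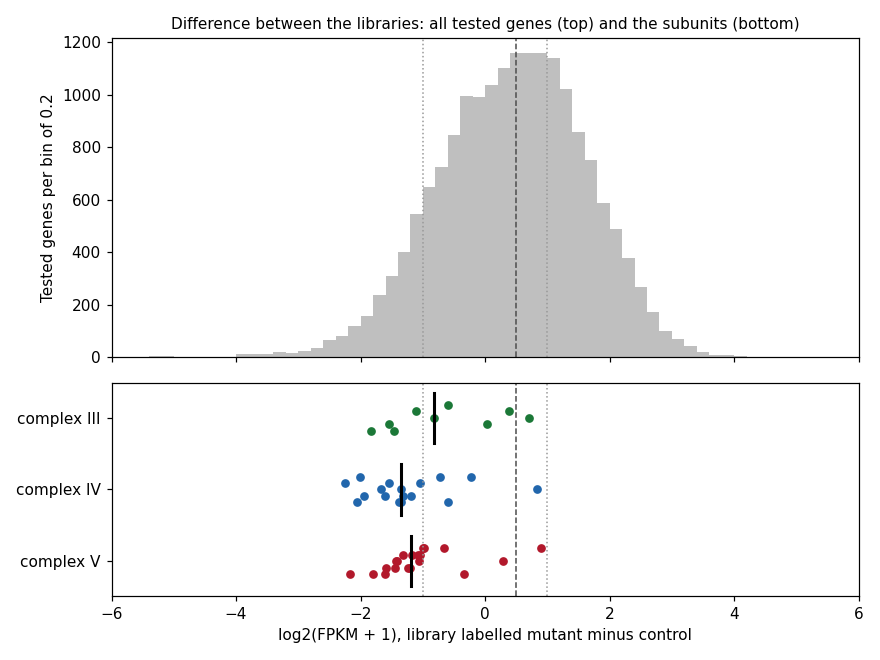
Difference in log2(FPKM + 1) between the libraries for all 17800 tested genes (top, number of genes per bin) and for the 46 tested members (bottom, 1 point per gene, black bars at the medians). The dashed line marks the median of all genes (0.49) and the dotted lines mark -1 and 1. The medians of complexes III, IV and V lie at -0.82, -1.35 and -1.19, or -1.32, -1.85 and -1.69 relative to all genes.

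Complex III had the smallest share of lower genes, though differences between the complexes were not tested. Of its 9 subunits, 4 were lower, 0 were higher and 5 stayed within 1, with a median difference of -0.82. The summed FPKM of the complex was 2707 in control and 2209 in the labelled mutant library. The subunits that carry electrons come first. uqcrfs1, the Rieske iron-sulfur protein, fell from 253 to 117 FPKM. cyc1, the cytochrome c1 that hands electrons to cytochrome c, was at 610.5 and 405 FPKM, a difference of -0.59.

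The core proteins of complex III, which face the matrix and carry no redox centre, split in 3 ways. uqcrc1 was at 617 FPKM in control and 1007 in the labelled mutant library, a difference of 0.71. It was 1 of only 3 members above the median of all genes, by 0.21, and under upper-quartile scaling it came to 0.06. The gene listed as uqcrc2 (ENSDARG00000071691) was at 301 and 307 FPKM (0.03, and -0.48 with TMM scaling), whereas its paralog uqcrc2a fell from 325 to 117 FPKM. In control uqcrc1 and cyc1 were at about the same level, with a ratio of 1.01, and in the labelled mutant library this ratio was 2.49.

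Of the 4 small subunits of complex III, 2 were lower. uqcrq fell from 130.3 to 35.8 FPKM, the largest decrease of the complex (3.64-fold). uqcr10 fell from 203 to 68.4 FPKM. uqcrh, the hinge protein between cytochrome c1 and cytochrome c, was at 265 and 149.6 FPKM (-0.82). uqcrb stood apart from the rest of its complex with only 2.11 and 3.06 FPKM, from 21 and 29 reads, and its ratio of 1.45 had an interval from 0.798 to 2.67.

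In complex IV, of 17 tested subunits, 13 were lower and 0 were higher, with a median of -1.35, and the summed FPKM was 5570 in control and 2374 in the labelled mutant library. All 4 subunit 5 genes were lower. These encode COX5A and COX5B, small matrix-facing subunits, the latter with a bound zinc ion. cox5a (ENSDARG00000099663) fell from 736 to 154 FPKM, the largest decrease of any member on the log2(FPKM + 1) scale (-2.25), and its paralog cox5aa fell from 654 to 263 FPKM. The most abundant transcript of the complex in control, cox5b (ENSDARG00000015978), fell from 1164 to 458 FPKM. The other cox5b (ENSDARG00000068738) fell from 16.6 to 3.36 FPKM, from 161 and 31 reads.

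Subunit 4 is the largest nuclear-encoded part of complex IV, and here the proportions of its forms moved. The 3 forms summed to 364 FPKM in control and 352 in the labelled mutant library, a ratio of 0.967 that was 0.676 with TMM scaling. cox4i1, the form that mammals express in most tissues, was at 168 FPKM in control and 302 in the labelled mutant library. By contrast, cox4i1l fell from 144 to 34.0 FPKM, and cox4i2, whose mammalian counterpart is best known from lung and from low oxygen, fell from 51.7 to 16.3 FPKM. cox4i1 thus made up 46.2% of subunit 4 FPKM in control and 85.7% in the labelled mutant library, while cox4i1l went from 39.6% to 9.65%. The difference of cox4i1 itself, 0.84, was not past the threshold, and it ranged from 0.20 under upper-quartile scaling to 1.06 when both libraries were set to equal sums of FPKM.

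Subunits 6 to 8 lie at the edge of complex IV and include the forms that are specific to muscle in mammals. cox6a1 (ENSDARG00000022438) fell from 709 to 345 FPKM, close to the threshold (-1.04). A second gene listed as cox6a1 (ENSDARG00000054588) was the 1 member that was not tested, with 5 and 2 reads. cox6b2, which in mammals is a testis form, was the more abundant cox6b here and fell from 508 to 198 FPKM. cox6b1, on the outer face of the complex, was at 168 and 111 FPKM (-0.59), and cox6c at 120.4 and 72.7 FPKM (-0.72).

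Among the subunit 7 genes, cox7a2 fell from 542 to 141 FPKM and cox7c from 302 to 93.8 FPKM. cox7a1, the heart and skeletal muscle form of mammals, was scarce in these hearts and fell from 22.02 to 6.91 FPKM. The related cox7a2l, known as a factor that links complexes III and IV into supercomplexes, was at 159 and 136 FPKM, a difference of -0.22. For subunit 8, cox8a fell from 99.2 to 37.2 FPKM. cox8b, which rodents express in heart and muscle, fell from 5.31 to 1.76 FPKM, on 60 and 19 reads.

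Complex V held most of the members' transcripts, with a summed FPKM of 17872 in control and 7148 in the labelled mutant library. Of its 20 genes, 14 were lower and 0 were higher, with a median of -1.19. With a trend on mean expression removed, 9 were lower, and the calls of atp5f1a, atp5f1b, atp5f1d, atp5mc1, atp5po, atp5pb and atp5pd ended. In the catalytic F1 head, atp5f1a (alpha) fell from 1883 to 615 FPKM and atp5f1b (beta) from 1972 to 738 FPKM. These subunits alternate in the head in equal number, and their FPKM ratio was 0.955 in control and 0.833 in the labelled mutant library. atp5f1c, the gamma subunit that turns inside the head, was at 1763 and 1111 FPKM (-0.67, and -1.18 with TMM scaling), and its ratio to atp5f1b was 0.894 in control and 1.51 in the labelled mutant library. In the foot of the rotor, atp5f1d (delta) fell from 502 to 237 FPKM and atp5f1e (epsilon) from 100.5 to 36.3 FPKM.

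The c subunits form the ring that turns as protons pass. atp5mc3b was the most abundant of all members in control and fell from 4868 to 1084 FPKM, a 4.49-fold decrease. atp5mc1 fell from 1939 to 838 FPKM, whereas atp5mc3 (ENSDARG00000017775) was at 284 FPKM in control and 349 in the labelled mutant library. The sign of that last difference (0.29) turned under TMM scaling (-0.22). Together the 3 genes summed to 7092 FPKM in control and 2270 in the labelled mutant library, and the share of atp5mc3b went from 68.6% to 47.7%.

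The peripheral stalk holds the head still against the rotor, and its genes moved in a narrow range. atp5pd fell from 949 to 402 FPKM, atp5po, which caps the stalk, from 1429.5 to 682 FPKM, and atp5pb from 975 to 474 FPKM. atp5pf was at 225 and 113 FPKM, just short of the threshold (-0.98). All 4 differences lay between -1.24 and -0.98.

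The remaining membrane subunits help the synthase to pair into dimers that bend the inner membrane. Those that fell were atp5mg, from 424 to 169.6 FPKM, atp5mf, from 92.8 to 29.99 FPKM, atp5md, from 53.8 to 14.7 FPKM, and atp5mea, from 28.5 to 9.90 FPKM. atp5mj was at 149 and 74.5 FPKM and just missed the threshold (-0.99). The second e subunit gene, atp5meb, was at 83.4 and 66.0 FPKM (-0.33).

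IF1 is a small inhibitor that keeps complex V from breaking down ATP when the membrane potential fails, and zebrafish have a pair of genes for it. atp5if1a fell from 121 to 53.1 FPKM. atp5if1b was at 27.9 FPKM in control and 52.8 in the labelled mutant library, the highest difference of all members (0.89), with a range from 0.27 under upper-quartile scaling to 1.11 at equal sums of FPKM. The genes thus stood far apart in control and at the same level in the labelled mutant library.

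Paralogous forms were then compared within each library, because a ratio of 2 genes in the same library does not depend on how the libraries are scaled. Of 14 pairs, the ratio changed by more than counting error in 11, and by more than 1 on the log2 scale in 7. The pairs are not separate, since cox4i1, cox7a2 and atp5mc3b each enter more than 1 of them. Other gene pairs were not counted, so whether these numbers are unusual is not known. Among all tested single genes, 11.6% were lower and 33.3% higher. In 5 pairs both forms were lower, in 8 pairs 1 form was lower and the other stayed within 1, and 1 pair held the gene that was not tested. Unlike the ratios, these calls depend on the scaling between libraries. cox6b1, paired with cox6b2, was lower as well relative to the median of all genes (-1.08) and with TMM scaling (-1.10). How reads of similar copies were divided is not known from the sources used here, which bears on all pairs.

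The widest change was in subunit 4. cox4i1 was at 1.17 times the level of cox4i1l in control (95% interval 1.0998 to 1.24) and at 8.88 times in the labelled mutant library (8.08 to 9.77), a change of 2.93 on the log2 scale (2.77 to 3.09). Against cox4i2 the ratio was 3.25 in control and 18.5 in the labelled mutant library, a change of 2.51. In the c ring, atp5mc3 reached 0.0584 of atp5mc3b in control and 0.322 in the labelled mutant library, a change of 2.46 (2.403 to 2.52). The ratio of atp5mc1 to atp5mc3b changed from 0.398 to 0.773. For IF1, the ratio of atp5if1b to atp5if1a was 0.231 in control (0.206 to 0.258) and 0.993 in the labelled mutant library (0.886 to 1.11), a change of 2.11 (1.88 to 2.34).

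In these pairs, atp5mc1 apart, 1 form stayed within 1 of its control level while its partner fell. This was seen also for cox7a2l against cox7a2, whose ratio was 0.293 in control and 0.969 in the labelled mutant library, and for uqcrc2 (ENSDARG00000071691) against uqcrc2a, with 0.925 and 2.63. The ratio of cox6b1 to cox6b2 changed less, from 0.331 to 0.561.

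In other pairs both forms had lower values, by unequal amounts. atp5mea reached 0.342 of atp5meb in control and 0.1499 in the labelled mutant library, so here the scarcer form fell further. The scarce cox5b also fell further than the abundant one (0.0143 and 0.00734 of it). Of cox5a and cox5aa, the slightly more abundant cox5a fell further, with a ratio of 1.13 in control and 0.587 in the labelled mutant library. For cox7a1 and cox8b, forms that are typical of muscle in mammals, no change of the ratio was detectable at this depth. The muscle form of subunit 6a could not be told from the names, which give both rows as cox6a1. cox7a1 was 0.0406 of cox7a2 in control and 0.0491 in the labelled mutant library, and the interval of the log2 change ran from -0.15 to 0.69. cox8b was 0.0535 and 0.0474 of cox8a, with an interval from -1.02 to 0.61. Both stayed minor in both libraries.

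**Figure D3:**
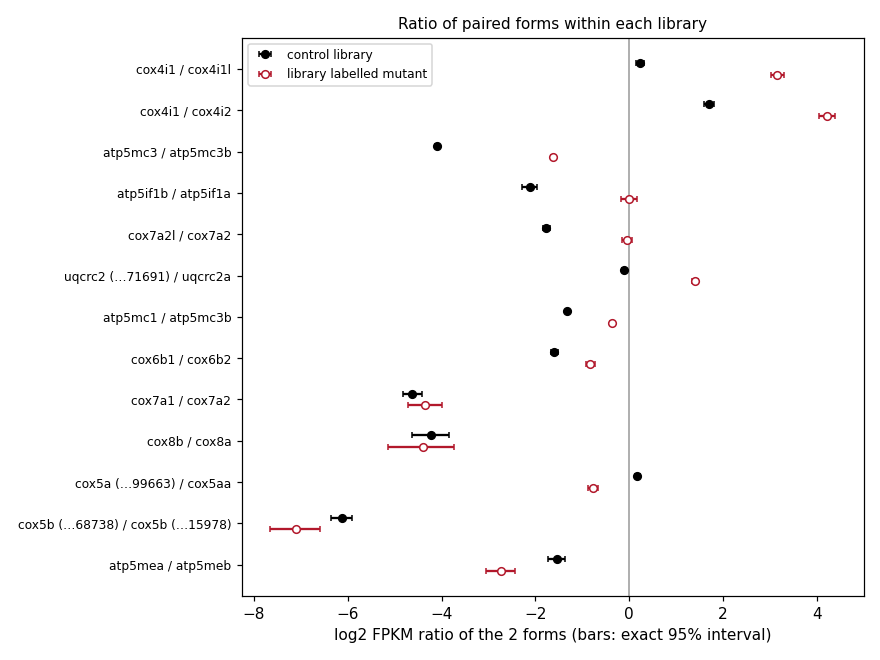
Ratio of FPKM between paired forms within each library, on a log2 axis, for the 13 pairs in which both forms were tested (filled: control, open: library labelled mutant, bars: exact 95% intervals for counting error). Pairs are ordered by the change. For cox4i1 over cox4i1l the ratio goes from 1.17 to 8.88, and the intervals of the libraries overlap for cox7a1 over cox7a2 and for cox8b over cox8a.

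The same complexes also hold subunits from the mitochondrial genome, which in complex IV form the catalytic core. Of 6 such genes, 3 were higher and 1 was lower, where 33.3% of all tested genes were higher and 11.6% lower. mt-co1 rose from 1250.5 to 3988 FPKM, and mt-atp6 rose from 753 to 2260.1 FPKM. mt-co2 fell from 11163 to 5234 FPKM, mt-cyb was at 2706 and 4304 FPKM, and mt-co3 at 5219 and 4928 FPKM. mt-atp8, also higher, had 1 and 6 reads and overlaps mt-atp6. TMM scaling gave 2 higher and 1 lower. The 6 genes summed to 21090.3 FPKM in control and 20717 in the labelled mutant library. Their median difference was 0.93, or 0.67 without mt-atp8 and 0.56 with TMM scaling. With TMM scaling and without mt-atp8 the median was 0.15, the value of mt-cyb.

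Complexes I and II feed electrons into the chain ahead of complex III. Among 38 genes listed as nuclear-encoded subunits of complex I, 19 were lower and 2 higher, with a median of -1.01. TMM scaling gave 30 lower and 1 higher. The list holds ndufa4, at 392 and 272 FPKM, which despite its name is now assigned to complex IV. ndufb9 fell from 957 to 251 FPKM and ndufa5 from 203 to 50.1 FPKM. Of 5 complex II genes, 2 were lower and 0 higher, namely sdhc (319 to 107 FPKM) and sdhb (502 to 191 FPKM). cycsb, the cytochrome c that travels between complexes III and IV, was at 483 and 392 FPKM (-0.30).

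Factors that assemble these complexes were split. For complex V, 0 of 5 were lower and 3 were higher, where 11.6% of all tested genes were lower and 33.3% higher. atpaf2 and atpaf1, chaperones of the alpha and beta subunits, rose from 10.1 to 39.2 FPKM and from 13.5 to 43.2 FPKM. The number higher was 2 with TMM scaling, 1 with upper-quartile scaling and 1 with the expression trend removed. The median of these factors was 1.36, or 0.87 with TMM scaling and 0.59 with the expression trend removed. For complex IV, 7 of 31 listed genes were lower and 7 higher. This list is broad and holds genes that are not assembly factors in the strict sense, among them hccs, lrpprc and fastkd1. sco1, which delivers copper to the complex, fell from 88.6 to 25.7 FPKM, and fastkd1, a mitochondrial RNA-binding protein, rose from 1.82 to 10.6 FPKM. With TMM scaling this balance became 11 lower and 3 higher. Of 8 complex III factors, 2 were lower and 2 higher, with ttc19, which in mammals clears fragments of the Rieske protein from the complex, rising from 3.02 to 15.4 FPKM and uqcc6 falling from 27.3 to 8.20 FPKM.

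Among 17 regulators of mitochondrial biogenesis, 2 were lower and 6 higher, and 4 and 4 with TMM scaling. tfam, which packages the mitochondrial genome and helps to start its transcription, rose from 4.46 to 39.4 FPKM, a difference of 2.89 that was 2.30 under upper-quartile scaling. gabpb2a, a partner of the ETS factor GABPA, rose from 1.74 to 11.2 FPKM, while gabpb1, a further such partner named here after its values were seen, fell from 14.3 to 2.54 FPKM. The lists of this and the previous paragraphs were written from general knowledge, and their counts are to be read against 11.6% lower and 33.3% higher genes overall.

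**Figure D4:**
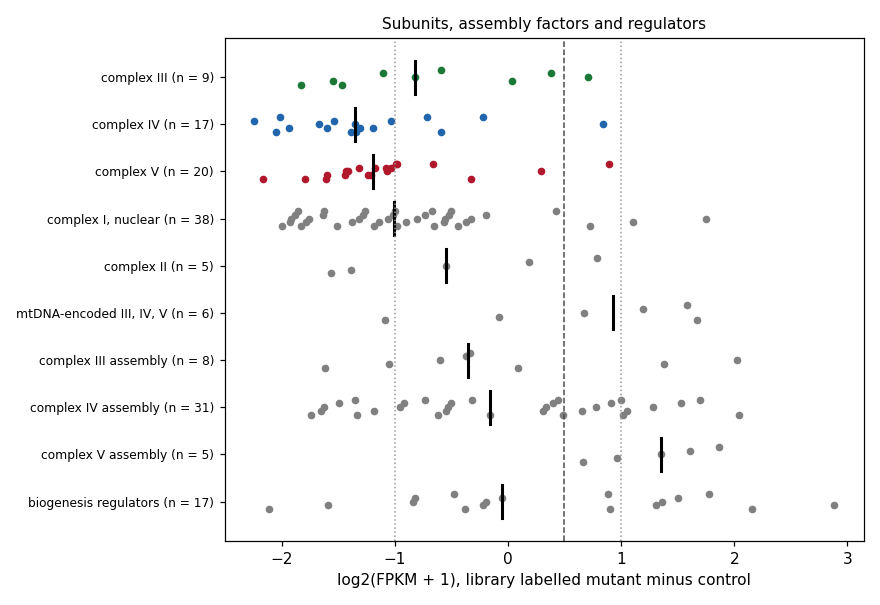
Difference in log2(FPKM + 1) for each tested gene of complexes III, IV and V and of related lists (1 point per gene, black bars at the medians, dashed line at the median of all genes, 0.49). The nuclear-encoded subunits lie mostly below 0, whereas the mitochondrially encoded subunits and the complex V assembly factors have medians of 0.93 (0.67 without mt-atp8, which had 1 and 6 reads) and 1.36. With TMM scaling the medians of these lists are 0.56 and 0.87, and the first is 0.15 when mt-atp8 is also left out.

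Markers of the heart and of other tissues were listed from general knowledge. Their counts are to be read against 11.6% lower and 33.3% higher genes among all tested genes. Of 20 tested liver and yolk markers, 14 were lower and 0 higher, and their summed level was 52448 FPKM in control and 13492 in the labelled mutant library. Skeletal muscle markers (5 of 23 lower, 6 higher) summed to 11837 and 4728 FPKM, neural markers (8 of 15 lower, 2 higher) to 1139 and 309 FPKM, and exocrine pancreas markers (7 of 8 lower) to 127 and 7.20 FPKM. The muscle sum fell mainly through myl1 (ENSDARG00000017441), at 3593 and 759 FPKM, ckma, at 2075 and 628 FPKM, and ckmb, at 2507 and 1309 FPKM. Most of the neural control sum was tuba1c, at 723 and 86.0 FPKM. All skeletal muscle and neural markers were above 0 in both libraries, whereas 2 and 1 of 23 liver and yolk markers and 1 and 3 of 12 pancreas markers were listed at 0 in control and in the labelled mutant library. Cardiomyocyte markers went from 6964 to 8252 FPKM (7 of 15 higher, 1 lower). Most of that control sum was actc1a, the 1 lower marker, at 4275 and 1685 FPKM. Endothelial markers went from 166 to 242 FPKM (3 of 13 higher, 1 lower), and lens and retina markers from 3.27 to 111 FPKM (8 of 8 higher). Of the 19 lens and retina markers with a row, 11 were listed at 0 in control and 3 in the labelled mutant library. Only 1 of the 8 tested reached 1 FPKM in both libraries. The others passed the filter through the labelled mutant library alone, so their direction was largely set by the filter. Epidermal markers (5 of 16 higher, 3 lower) summed to 22682 and 29085 FPKM, of which krt4 gave 8063 and 16552 FPKM. Erythrocyte markers were higher in 8 of 14 and lower in 0, with a median difference of 1.24, whereas their sum of 3239 and 2569 FPKM was mostly hbae3, at 2958 and 2100.4 FPKM. With TMM scaling, 19.3% of all genes were lower and 21.2% higher. Endothelial markers were then 2 higher and 1 lower, epidermal markers 1 and 4, and skeletal muscle markers 2 and 10. Cardiomyocyte markers were 6 higher and 1 lower, and erythrocyte markers 4 and 2. Liver and yolk, neural and pancreas markers had 16, 10 and 8 lower and 0 higher. The 8 lens and retina markers stayed higher, with the same limit from the filter. The part of these tissues in the decrease of the subunits was not tested. In bulk samples, fewer cells of a type and less RNA per cell cannot be told apart.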

How the data were processed

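RNA-seq was done on 1 library per group by a service provider. The authors deposited FPKM per gene, scaled by gene length and library total with no scaling between libraries. The unit was recognized from the values. The submitters' processing notes name TopHat2 2.0.9 and Bowtie2 2.0.6. The counting rule, genome build and annotation are not given in the sources used here, so no coordinates are printed. All columns were mapped to a sample.

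Log2(FPKM + 1) was subtracted between libraries. A gene entered at 1 FPKM or more in either library, and the threshold was 1. Whole reads were recovered from ratios of FPKM values between libraries (91.4% and 90.9% of the totals). The true number, and the gene length, can be a multiple of the recovered one. Intervals are exact Clopper-Pearson intervals, or exact conditional intervals of the odds ratio for changes of isoform ratios, at 95%, for counting error only.

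Members and lists were chosen with earlier results of these data known. The rule for named genes took all paired forms, per complex the 3 largest decreases, the most abundant member and members above the median of all genes, and per related list 2 genes by absolute difference among those reaching 10 FPKM. The other members and mitochondrially encoded subunits are given for completeness. Alternatives were TMM (trims of 30% and 5%), median-of-ratios and upper-quartile scaling, equal sums of FPKM, other filters, pseudocount and threshold, and removal of lowess trends (span 0.3) on length or mean expression. A planned comparison of protein and promoter sequences was not run. Procedures were tested on simulated data. Software was scipy 1.17.1, pandas 2.3.3, statsmodels 0.14.6, matplotlib 3.10.9 and numpy 2.4.6 in Python 3.11.15.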

Additional observations from a re-analysis of the deposited data

How the results depend on the processing

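The number of members called lower was 31, and it was 38 when scaled by TMM, by upper quartile or by median of ratios and relative to the median of all genes, 34 with the length trend removed, 25 with the expression trend removed (9 calls ended, 7 of them in complex V) and 24 at equal sums of FPKM, an alternative chosen after seeing the data. With a threshold of 2 it was 4. Filters and the pseudocount left it at 31. The number called higher was 0, except for 2 at equal sums of FPKM (cox4i1 and atp5if1b) and 1 with the expression trend removed (uqcrc1). The median difference of the members lay between -1.85 and -1.02 under these alternatives. The median of complex V was -0.90 with the expression trend removed and that of complex III -1.34 under TMM scaling. Among all genes, 74.2% of those past the threshold were higher, against 52.3% with TMM, 46.0% with upper-quartile and 52.0% with median-of-ratios scaling. Adding 1 FPKM to each form kept all changes of isoform ratios within their intervals, while the sign turned for cox8b over cox8a and for the pair of cox6a1 genes, whose intervals hold 0. The ratios were not recomputed with the trends removed, which can move them. With the expression trend removed, atp5mc3 and atp5mc3b came closer, at 0.47 and -1.17. The scarce and the abundant cox5b moved further apart, at -2.68 and -0.82. No replicate could be left out, and no paired analysis was possible because each group had 1 library. The lowest members rest on few reads (5 and 2 for the second cox6a1, 21 and 29 for uqcrb), which limits their ratios.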
